A study of Mus musculus with 4 samples.

Results

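The genes of the mitochondrial respiratory chain and of ATP synthase were examined in RNA sequencing of mouse cDNT cells, which the series title places among double-negative T cells. The members are the protein-coding genes of the table whose symbol begins with Nduf, Sdha to Sdhd, Uqcr, Cox4 to Cox8, Atp5 or mt-, together with Cyc1 and Cycs. This rule uses names and no measured values, and it found 106 of the 24768 genes, of which 94 lie in the nucleus and 12 on the mitochondrial genome. Another 7 annotated genes that match the rule, among them mt-Atp8, Ndufa7 and Ndufb8, were not analysed here. There were 2 groups of 2 libraries, wild-type (WT) cDNT cells and a Tbx21-KO group of the same cells, for which the series design instead speaks of a knockdown. The labels give T cells as the cell type and mouse as the species, and do not state strain, age, treatment, how Tbx21 was disrupted, or whether the libraries came from separate animals or cultures. P-values thus reflect only how far these libraries spread, and that spread may be technical.

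The respiratory chain passes electrons from NADH and succinate to oxygen and pumps protons across the inner mitochondrial membrane, and ATP synthase (complex V) uses that gradient to make ATP. Complex I takes electrons from NADH, complex II from succinate, complex III hands them to cytochrome c, and complex IV passes them to oxygen. Most subunits are encoded in the nucleus and imported, while a small core of hydrophobic subunits of complexes I, III, IV and V is encoded by mitochondrial DNA, so the complexes are built from the products of both genomes. Activated T cells make more mitochondria and use both glycolysis and respiration.

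Levels are FPKM values (fragments scaled to gene length and library size) as deposited. Differences, on the log2(FPKM + 1) scale, give Tbx21-KO relative to WT and were fitted with limma over the 11013 genes with a mean of at least 1 FPKM, and a gene was called at a Benjamini-Hochberg adjusted p under 0.05. The values imply totals of 23342603 to 24967028 reads per library, and the depth of sequencing may have been greater. Of the members, 23 share over 5% of their exon bases with another annotated gene, and without a known strand setting their values are uncertain. Tbx21, which encodes the transcription factor T-bet, was at 13.2 and 11.7 FPKM in WT 1 and 2, against 2.29 and 2.41 FPKM in Tbx21-KO 1 and 2. Markers of other cells moved with the groups: the 15 granulocyte and mast cell markers summed to 12.1 and 15.7 FPKM in WT and to 10972.6 and 11284.5 FPKM in the Tbx21-KO libraries, and all 15 were called higher. Only 6 of the 15 were at 1 FPKM or more in WT. The others passed the filter through their Tbx21-KO levels, a filter that favours higher values. Of 7 macrophage and monocyte markers with a row, 6 were tested and called higher, with sums of 179.4 and 180.3 FPKM against 444.5 and 474.7 FPKM. Ly6c2 made up most of the WT sums, at 163.9 and 161.9 FPKM in WT and 182.9 and 192.0 FPKM in Tbx21-KO. Itgam and Adgre1 were below 1 FPKM in WT and were tested through their Tbx21-KO levels. The 2 tested B cell markers and the 1 tested erythroid and platelet marker, Itga2b, were also higher. Itga2b, too, passed the filter through its Tbx21-KO levels. Of the 17 T cell receptor complex genes, 12 were lower and 1 higher. In bulk RNA fewer cells of a type and less RNA per cell cannot be told apart, and the part of these other cells in the results below was not tested. The share of higher genes among all calls was 56.7% as deposited, 39.1% with quantile-normalized libraries, and 93.9% when the libraries were rescaled to the T cell receptor genes. The median over all genes shifted by -0.14 and 0.40 under these scalings, so changes of that size have no settled direction.

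Most respiratory chain genes differed little between the groups. Of the 100 members tested, 32 (32.0%) were called, 9 higher and 23 lower, against 53.1% of all genes tested, 30.1% higher and 23.0% lower. Among all genes with a mean of at least 5 FPKM, 59.6% were called, 28.7% higher and 30.9% lower. In 71 of the 100 the log2 fold change was at most 0.25 in size, as it was in 5398 of all 11013 genes tested. The nuclear members had a median of -0.03 and the mitochondrially encoded members of -0.38, beside 0.04 for all genes tested. When scaled to the T cell receptor list, 77 members were higher and 1 lower, against 72.6% higher and 4.75% lower over all genes. Under that scaling the 9 higher members were again higher, while of the 23 lower members 1 was again lower and 9 were higher. After quantile normalization 7 of the 9 and 21 of the 23 kept their call. Leaving out Tbx21-KO 1 left 5 higher and 12 lower members, leaving out Tbx21-KO 2 left 5 higher, and leaving out WT 2 gave 16 higher.

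**Figure D1:**
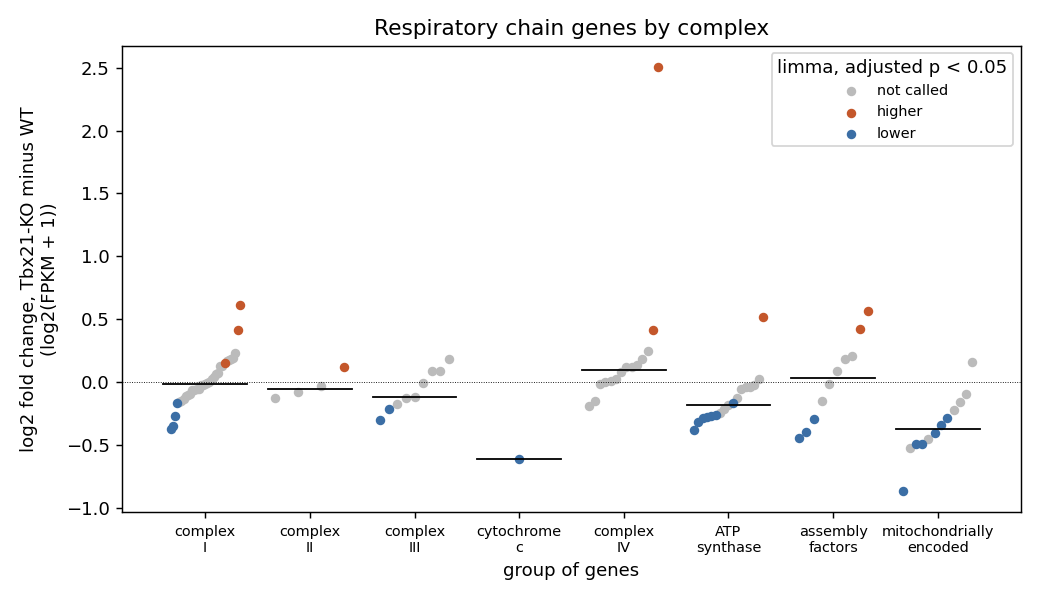
Each point is 1 of the 100 tested members, placed by its log2 fold change (Tbx21-KO minus WT, log2(FPKM + 1)) within its complex, and black bars are medians. Cox6b2 stands at 2.51 in complex IV and mt-Cytb at -0.87 among the mitochondrially encoded genes, while most other points lie close to 0.

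The mitochondrially encoded messenger RNAs did not move as a block. With the deposited values 6 of the 12 genes were lower, none higher and 6 not called, against 23.0% lower and 30.1% higher of all genes. With the T cell receptor list scaling 3 of the 12 were higher and 1 lower, against 72.6% and 4.75% of all genes. At an unadjusted p under 0.05 the limma fit gave 0 higher genes, and limma voom on reads recovered from the FPKM values called 1 higher, mt-Co1. The fall of mt-Cytb, which encodes cytochrome b, the mitochondrially encoded subunit of complex III (mitochondrial genome of GRCm38, 14145 to 15288), was the largest of any member. It was at 2327 and 2332 FPKM in WT 1 and 2, against 1230 and 1321 FPKM in Tbx21-KO 1 and 2. Its groups lay far apart, with a log2 difference of -0.87 (SE 0.06, limma adjusted p = 0.000353), and it was the member that stayed lower under the T cell receptor list scaling, at -0.41. These values rest on 32850 to 66466 reads per library.

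The complex I subunit genes mt-Nd4, mt-Nd5, mt-Nd2, mt-Nd6 and mt-Nd1 fell as well, by 0.50, 0.49, 0.41, 0.35 and 0.28 on the log2 scale. mt-Nd5 was at 1024 and 961.4 FPKM in the WT libraries, against 697.8 and 713.3 FPKM in the Tbx21-KO libraries. mt-Nd4 was at 736.0 and 697.8 FPKM in the WT libraries, against 494.8 and 520.9 FPKM in the Tbx21-KO libraries. Both genes separated the groups by more than the spread within either group. mt-Nd6, the gene of the list read from the other strand of the mitochondrial genome, was at 446.3 and 371.3 FPKM in the WT libraries, against 309.0 and 331.4 FPKM in the Tbx21-KO libraries. The calls of mt-Nd6 and mt-Nd1 were each lost after quantile normalization and when either Tbx21-KO library was left out, and with the T cell receptor list scaling mt-Nd1 was higher, by 0.18, and the other 4 were not called.

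mt-Co1, which encodes the catalytic subunit of complex IV, was the most abundant transcript of the group and its difference had the opposite sign. It was at 7782 and 7819 FPKM in the WT libraries, against 8548 and 8865 FPKM in the Tbx21-KO libraries. The groups did not overlap, but the gene was not called (log2 fold change 0.16, SE 0.06, limma adjusted p = 0.0908). In each library mt-Co1 alone held 2.51% to 2.74% of the summed FPKM. The other 11 mitochondrially encoded members together held 2.66% and 2.65% in WT and 1.81% and 1.83% in Tbx21-KO. The levels of 5 of these are uncertain, and a copy covers part of mt-Nd4, as described below.

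Because all mitochondrial transcripts of a library share its scaling, each was also set against mt-Co1 in the same library. A copy on chromosome 1, described below, covers 31.3% of mt-Co1, and its part in these ratios was not tested. mt-Cytb stood at 29.9% and 29.8% of the mt-Co1 FPKM in the WT libraries, against 14.4% and 14.9% in Tbx21-KO. mt-Nd5 stood at 13.2% and 12.3% in WT and at 8.16% and 8.05% in Tbx21-KO, and mt-Nd2 at 16.8% and 17.2% against 11.5% and 11.4%. The ribosomal RNA genes of the same genome, which are not members, were higher relative to mt-Co1. mt-Rnr1, the small ribosomal RNA, stood at 4.75% and 4.91% of the mt-Co1 level in WT and at 8.90% and 9.27% in Tbx21-KO. On the deposited scale mt-Rnr1 rose from 369.5 and 383.9 to 760.4 and 821.9 FPKM (log2 fold change 1.07, limma adjusted p = 0.000198) and mt-Rnr2, the large ribosomal RNA, by 0.56. Transcripts of 1 genome thus changed unequally within the same libraries, whatever the scaling. The libraries were made with an mRNA kit, in which the yield of ribosomal RNA need not follow its amount.

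**Figure D2:**
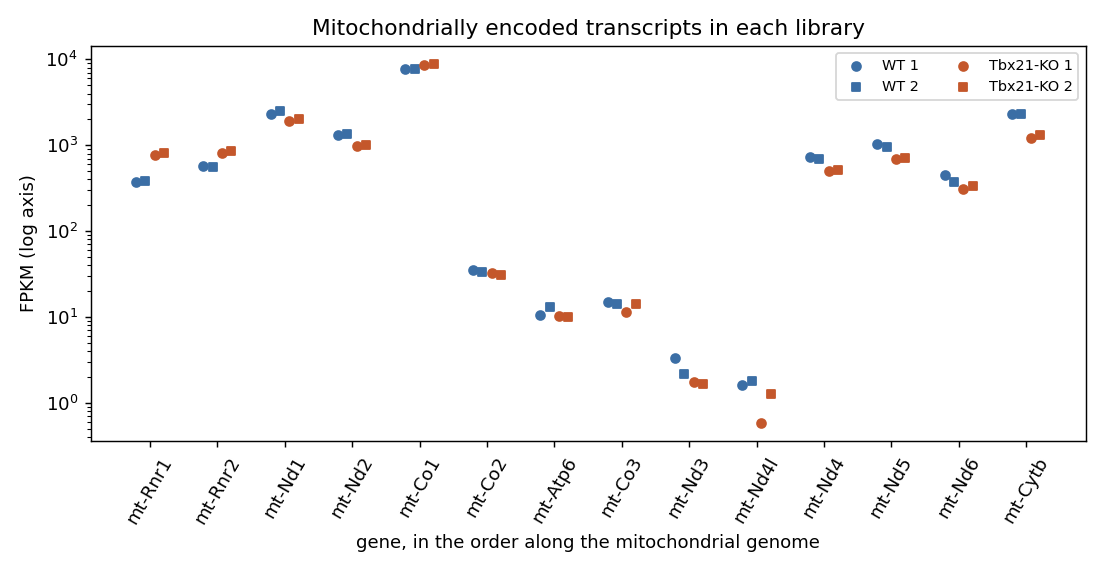
FPKM (log axis) of mitochondrially encoded transcripts in each of the 4 libraries, in the order along the mitochondrial genome. mt-Rnr1 and mt-Rnr2 are higher in both Tbx21-KO libraries, mt-Cytb and 5 mt-Nd genes are lower, and the genes from mt-Co2 to mt-Nd4l are listed far below their neighbours.

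A run of 5 neighbouring genes, mt-Co2, mt-Atp6, mt-Co3, mt-Nd3 and mt-Nd4l, was listed at mean levels of 1.32 to 32.9 FPKM, while the other 7 were at mean levels of 365 to 8254 FPKM. These 5 were set apart after their values were seen. None was called with the deposited values, and their values rest on as few as 4 reads in mt-Nd4l. The annotation holds pseudogene copies of this stretch on chromosome 1 (GRCm38, 24611535 to 24616197). Aligned to the transcript of each gene, the copies matched 99.0% to 99.9% of the length of these 5 genes without a gap, with no mismatch in 4 of them and 1 mismatch in mt-Nd3. The copies were listed at low levels too, some below and some above the gene. Gm28661, the copy of mt-Co2, was at 21.01 to 26.2 FPKM over the 4 libraries, where mt-Co2 was at 30.7 to 35.1 FPKM. Gm10925, the copy of mt-Atp6, was at 33.6 to 38.9 FPKM, where mt-Atp6 was at 9.90 to 13.2 FPKM. Gm28438, the copy of mt-Nd3, was at 11.3 and 8.29 FPKM in WT and at 1.24 and 0.844 FPKM in Tbx21-KO, where mt-Nd3 was at 1.67 to 3.34 FPKM. Copies on that chromosome also cover 63.6% of mt-Nd4 and 31.3% of mt-Co1. Reads from the identical parts cannot be assigned to either copy, so the levels of the 5 genes are uncertain. The same holds for the covered parts of mt-Nd4 and mt-Co1, and its effect on their levels was not tested. The first 60 bases of mt-Nd3 and of its copy Gm28438 are printed to show how close such copies are. The capital marks the base that differs, T3C from mt-Nd3 to the copy, counted from the start of the gene.
mt-Nd3: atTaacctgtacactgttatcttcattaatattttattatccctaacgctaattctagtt
Gm28438: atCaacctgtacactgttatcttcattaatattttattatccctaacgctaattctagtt

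Complex I, the largest complex, had 34 nuclear members. Of the 33 tested, 3 were higher, 4 lower and 26 not called with the deposited values (21.2% called against 53.1% of all genes, median -0.02). With the T cell receptor list scaling 30 were higher, while 72.6% of all genes were. Mean levels of the 33 ran up to 89.9 FPKM. Ndufa6, an accessory subunit of the matrix arm, had the largest rise of the complex. It was at 62.0 and 80.5 FPKM in the WT libraries, against 110.4 and 106.6 FPKM in the Tbx21-KO libraries, with a log2 difference of 0.61 (SE 0.13, limma adjusted p = 0.0139). The WT libraries lay further apart than the Tbx21-KO libraries, both below them, and the call was lost without a filter and when either Tbx21-KO library was left out.

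Ndufv3, an accessory subunit next to the NADH-binding site, was at 27.2 and 29.3 FPKM in the WT libraries, against 37.5 and 38.6 FPKM in the Tbx21-KO libraries, a log2 difference of 0.42 (SE 0.05, limma adjusted p = 0.00257). It was higher in each of the other fits. Ndufv2, a subunit of the same module that carries an iron-sulfur cluster, was higher by 0.15, a call lost in 6 of the other 15 fits.

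Ndufa10, an accessory subunit of the membrane arm, had the largest fall of the complex, from 48.2 and 48.5 FPKM to 36.9 and 37.3 FPKM (log2 fold change -0.37, SE 0.04, limma adjusted p = 0.00124). The libraries within each group differed by under 1 FPKM. Ndufb6, Ndufs3 and Ndufa9 were lower by 0.35, 0.27 and 0.16, and their calls were lost in 5, 3 and 6 of the other fits. Ndufb6 shares 39.0% of its exon bases with another annotated gene, so its value is uncertain. Scaled to the T cell receptor list, all 4 were above 0, at 0.08, 0.10, 0.17 and 0.28. The core subunit genes Ndufs1, Ndufs7, Ndufs8 and Ndufv1 were not called, and their log2 differences were -0.03, 0.04, -0.13 and -0.11. Ndufb2 did not reach the filter, at 0.135 to 0.370 FPKM, and Ndufab1, the mitochondrial acyl carrier protein, was at 1.23 to 1.32 FPKM. Their annotated exons sum to 5628 and 6883 bases, and the part of this length in their low FPKM was not tested.

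Complex II, which is encoded wholly in the nucleus and also works in the citric acid cycle, differed little. Of its 4 members 1 was called (25.0% against 53.1% of all genes). Sdha, the flavoprotein, was at 55.2 and 54.9 FPKM in the WT libraries, against 54.2 and 53.7 FPKM in the Tbx21-KO libraries (log2 fold change -0.03, SE 0.04). Sdhb and Sdhc were not called, at -0.12 and -0.08. Sdhd, a membrane anchor, was called higher by 0.12 (limma adjusted p = 0.045), just inside the threshold, a call lost in 10 of the other 15 fits. Under the T cell receptor list scaling all 4 were called higher, with a median of 0.39. Of all genes 72.6% were higher under it, with a median of 0.43.

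Of the 9 nuclear members of complex III, 2 were lower, none was higher and 7 were not called (22.2% called against 53.1% of all genes). Their median of -0.12 became 0.33, with 8 higher, under the T cell receptor list scaling, against 0.43 and 72.6% for all genes. The limma fit gave 0 higher genes of this complex at an unadjusted p under 0.05, and limma voom called none higher. Uqcrq, a small subunit, was at 64.4 and 72.0 FPKM in the WT libraries, against 53.9 and 55.7 FPKM in the Tbx21-KO libraries, a log2 difference of -0.31. Cyc1, the haem-bearing cytochrome c1, was at 105.8 and 109.3 FPKM in the WT libraries, against 93.5 and 91.8 FPKM in the Tbx21-KO libraries, a log2 difference of -0.21. Both calls were lost when either Tbx21-KO library was left out. Uqcrfs1, the Rieske iron-sulfur protein, and the core proteins Uqcrc1 and Uqcrc2 were not called, at -0.12, -0.01 and 0.08, and neither was the small subunit Uqcrb, at 0.18. mt-Cytb, the partner of these proteins in the complex, was at -0.87 on the same scale.

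Cycs, which encodes the soluble carrier cytochrome c, also a trigger of apoptosis once released from mitochondria, had the largest fall of the nuclear members. The gene lies on chromosome 6 of GRCm38 (50562563 to 50566538) and measured 53.6 and 63.7 FPKM in the WT libraries, against 37.78 and 37.97 FPKM in the Tbx21-KO libraries. The Tbx21-KO libraries agreed closely and both lay below both WT libraries, with a log2 difference of -0.61 (SE 0.09, limma adjusted p = 0.00409). When scaled to the T cell receptor list, the difference was -0.16 and was not called (limma adjusted p = 0.0931), and the call was kept in the other 14 fits.

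Complex IV had 18 nuclear members with Ndufa4, a complex I name for a subunit now placed in complex IV, and its paralogue Ndufa4l2. Of the 14 tested, 2 were higher, none was lower and 12 were not called (14.3% called against 53.1% of all genes, median 0.10). With the T cell receptor list scaling 13 were higher (median 0.55), against 72.6% of all genes (median 0.43). At an unadjusted p under 0.05 the limma fit gave 0 lower genes, and voom called 4 higher and 1 lower. Cox4i1, the general form of subunit 4, was at 71.0 and 74.8 FPKM in the WT libraries, against 71.6 and 74.3 FPKM in the Tbx21-KO libraries, and was not called. Cox8a and Cox6a1, the most abundant nuclear members, were at 375.2 and 422.0 against 428.0 and 437.8 FPKM and at 307.8 and 365.0 against 368.4 and 367.7 FPKM, and neither was called. Ndufa4 was at 0.25 on the log2 scale and was not called. Cox5b, a subunit that binds zinc, had the lowest log2 fold change of the complex, -0.19, and was not called.

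Cox6b2, the testis form of subunit 6b (GRCm38 chromosome 7, 4751792 to 4753094), had the largest change of any member. It was at 0.578 and 0.598 FPKM in WT, or 16 reads in each library, and at 7.58 and 8.49 FPKM in the Tbx21-KO libraries, or 196 and 226 reads. The rise was 13.7-fold, with a log2 difference of 2.51 (SE 0.08, limma adjusted p = 5.56e-05), and was called in each other fit that tested it, which the fit of genes with a mean of at least 5 FPKM did not. Its mean passed the filter because of its Tbx21-KO levels, a filter that favours higher values. The general form Cox6b1 was at 119.1 and 124.3 FPKM in the WT libraries, against 117.1 and 130.5 FPKM in the Tbx21-KO libraries, so Cox6b2 remained the minor form in every library.

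Other tissue forms of complex IV subunits were also rare. Cox4i2, the oxygen-sensitive form of subunit 4, was at 0.0508 and 0.421 FPKM in the WT libraries, against 0.870 and 0.845 FPKM in the Tbx21-KO libraries. The heart and muscle forms Cox6a2 and Cox8b were at 0.707 and 0.853 against 1.13 and 1.16 FPKM and at 0 and 0.230 against 0.952 and 0.578 FPKM. These 3 genes and Ndufa4l2 lay under the filter and were not tested. Cox7a1, the muscle form of subunit 7a, was at 2.72 to 3.80 FPKM and was not called, and Cox7a2, the general form, was at 65.0 to 75.2 FPKM and was not called. Cox7a2l, a relative of subunit 7a that joins complexes III and IV into supercomplexes, rose from 115.1 and 121.6 FPKM to 154.1 and 161.1 FPKM (log2 fold change 0.41, SE 0.05, limma adjusted p = 0.00217). This rise was called in each of the other fits.

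**Figure D3:**
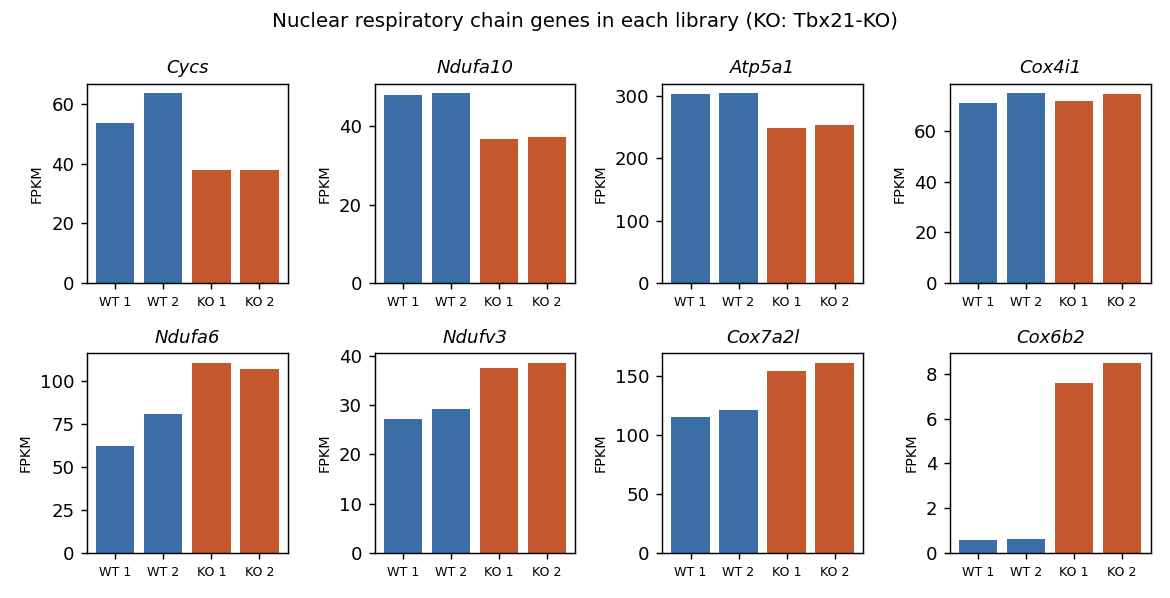
FPKM of 8 nuclear members in each library (bars from 0, 1 bar per library). Cycs, Ndufa10 and Atp5a1 are lower and Ndufa6, Ndufv3, Cox7a2l and Cox6b2 higher in both Tbx21-KO libraries, while the bars of Cox4i1 overlap between the groups.

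ATP synthase had 17 nuclear members. Of the 17 tested, 7 were lower, 1 higher and 9 not called (median -0.19), against 23.0% lower and 30.1% higher of all genes. With the T cell receptor list scaling 14 were higher (median 0.26), against 72.6% of all genes. The catalytic head was among the lower genes. Atp5a1, the alpha subunit, was at 302.5 and 304.4 FPKM in the WT libraries, against 248.4 and 253.0 FPKM in the Tbx21-KO libraries, and Atp5b, the catalytic beta subunit, at 303.2 and 304.8 against 250.3 and 256.1 FPKM. These 2 genes, whose products occur in equal number in the enzyme, had nearly equal levels in each library and log2 fold changes of -0.27 and -0.26 (SE 0.04 each, limma adjusted p = 0.00338 and 0.00403). Atp5c1, the gamma subunit that forms the central shaft, was not called, at -0.03, and Atp5d, the delta subunit, was lower by 0.17, a call lost in 6 of the other fits.

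The peripheral stalk genes Atp5o and Atp5f1 fell by 0.32 and 0.28. Atp5o shares 47.9% of its exon bases with other annotated genes, so its value is uncertain. Atp5g1, Atp5g2 and Atp5g3 encode the same mature subunit c of the membrane ring behind different import sequences. Atp5g3, the most abundant of them by mean level, was at 84.7 and 89.3 FPKM in the WT libraries, against 70.3 and 72.6 FPKM in the Tbx21-KO libraries, a log2 difference of -0.28. Atp5g1 fell from 14.7 and 16.8 to 11.6 and 12.1 FPKM, by 0.38 on the log2 scale, and Atp5g2 was at 71.5 and 77.6 against 68.2 and 77.1 FPKM and was not called. The gene that rose was Atp5s, a factor related to coupling of the enzyme, from 2.46 and 2.07 to 3.78 and 3.55 FPKM (log2 fold change 0.52), a call lost after quantile normalization and without Tbx21-KO 1. The fall of Atp5g1 was lost without Tbx21-KO 1. Scaled to the T cell receptor list, 5 of the 7 lower genes were higher (Atp5f1, Atp5g3, Atp5a1, Atp5b and Atp5d) and the other 2 were not called.

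Assembly factors, which build the complexes and are not part of them, moved both ways. Of the 10 tested, 5 were called, 2 higher and 3 lower (median 0.03), against 53.1% of all genes, 30.1% higher and 23.0% lower. Of the same 10, 5 were higher with the T cell receptor list scaling, against 72.6% of all genes. Ndufaf3, a complex I assembly factor, rose from 9.05 and 8.29 FPKM to 12.9 and 13.6 FPKM (log2 fold change 0.56, SE 0.06, limma adjusted p = 0.00184), and kept its call in each of the other fits. Ndufaf4, which acts with Ndufaf3, fell from 5.84 and 6.22 FPKM to 4.17 and 4.16 FPKM, by 0.44 on the log2 scale. Ndufaf5 rose by 0.42, and Ndufaf8 and Ndufaf7 fell by 0.40 and 0.29. The call of Ndufaf5 was lost in 6 of the other fits, that of Ndufaf8 in 4 and that of Ndufaf7 in 2. Sdhaf1 was under the filter in these libraries, at 0.0499 to 0.161 FPKM.

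Seen by genome, the summed FPKM of the 94 nuclear members was 4948 and 5368 in WT and 4988 and 5158 in Tbx21-KO, and the ranges overlapped. The summed FPKM of the 12 mitochondrially encoded members was 15984 and 16067 in WT and 14212 and 14852 in Tbx21-KO, or 5.17% ± 0.0156 and 4.55% ± 0.00267 of all FPKM (SD, n = 2 each). Without mt-Co1 it was 8202 and 8248 in WT and 5664 and 5987 in Tbx21-KO, whose mean was 0.708 times the WT mean. The difference between the mitochondrial and the nuclear median was -0.35 with the deposited values and -0.33 with the T cell receptor list scaling. A sum is carried by its most abundant genes, and mt-Co1 made up more than the rest of the mitochondrial sum in Tbx21-KO. The 5 genes with near-complete copies, whose levels are uncertain, added 65.4 and 64.1 FPKM in WT and 56.7 and 57.7 FPKM in Tbx21-KO. The mitochondrial sums and shares thus rest on the other 7 genes, and mt-Atp8 is not in them. Among the 7, mt-Nd4 and mt-Co1 are covered in part by copies.

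**Figure D4:**
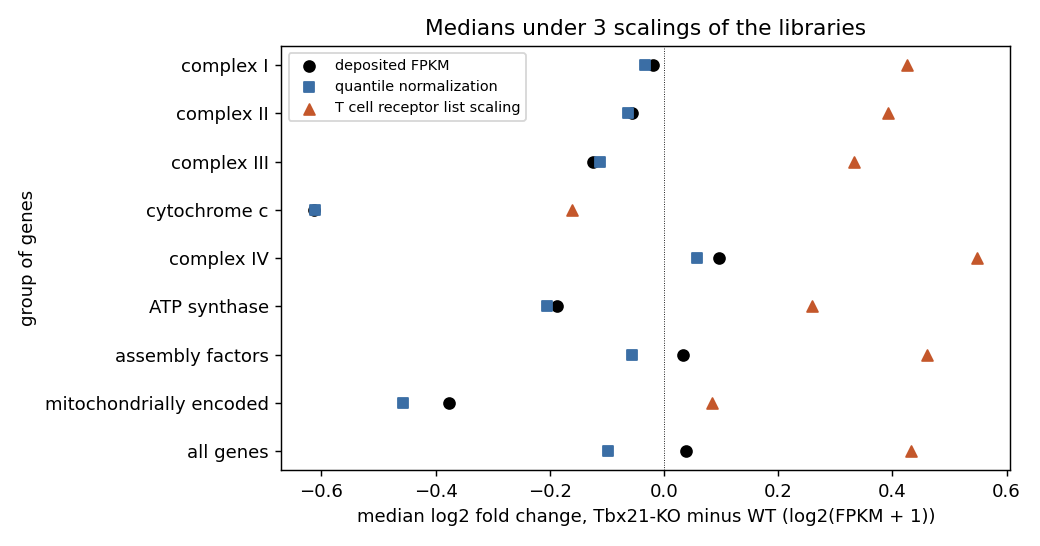
Median log2 fold change (Tbx21-KO minus WT, log2(FPKM + 1)) of each group of members and of all genes tested under 3 scalings of the libraries. The T cell receptor list scaling moves every median to the right, and the mitochondrially encoded genes and Cycs stay left of the other groups and of all genes under each scaling.

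Other mitochondrial genes were listed in 6 groups, which without the members held 132 tested genes. Of these 30 were higher and 25 lower, which is 41.7% against 53.1% of all genes. Under the T cell receptor list scaling 104 were higher, against 72.6% of all genes. Quantile-normalized libraries gave 21 higher and 46 lower, against 2438 and 3801 of all 11013 genes. Among 31 genes of mitochondrial DNA maintenance and transcription, 3 were higher and 8 lower (35.5% called). With the T cell receptor list scaling 19 of them were higher, against 72.6% of all genes. Tfb2m, a subunit of the mitochondrial transcription machinery, fell from 14.6 and 16.5 FPKM to 10.4 and 9.82 FPKM (log2 fold change -0.57, SE 0.07, limma adjusted p = 0.00306). Tfam, which packages mitochondrial DNA and starts its transcription, was lower by 0.26, and Lrpprc, which stabilises mitochondrial messenger RNA, by 0.33. Polrmt, the mitochondrial RNA polymerase, was not called, at -0.08. When scaled to the T cell receptor list, Tfb2m was at -0.14, Tfam at 0.17 and Lrpprc at 0.08, and none of the 3 was called.

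Of 14 regulators of mitochondrial gene expression, 5 were higher and 5 lower (71.4% called against 53.1% of all genes). With the T cell receptor list scaling 9 were higher, against 72.6% of all genes. Gabpa, an ETS family factor that binds many promoters of respiratory genes, fell from 20.002 and 19.4 FPKM to 15.3 and 14.8 FPKM, by 0.37 on the log2 scale, and was at 0.07 with the T cell receptor list scaling. Nrf1, a factor that binds many of the same promoters, was lower by 0.17 and Pprc1, a coactivator, by 0.31, calls lost in 7 and 4 of the other fits. Ppargc1b was at 0.959 to 1.52 FPKM and was not called, and Ppargc1a was not analysed here. Myc, a driver of growth and of mitochondrial genes in activated T cells, was higher by 0.24. Of the 18 citric acid cycle and pyruvate dehydrogenase genes, 2 were higher and 2 lower (22.2% called). With the T cell receptor list scaling 17 were higher, against 72.6% of all genes. Cs, citrate synthase, often used as a measure of mitochondrial content, was at 59.8 and 60.1 FPKM in the WT libraries, against 65.3 and 64.3 FPKM in the Tbx21-KO libraries and was not called (limma adjusted p = 0.0507). Ucp2, an inner membrane carrier, was higher by 0.20, a call lost in 1 of the other fits. The remaining lists were 45 assembly factors with members included (8 higher, 8 lower), 19 other electron input and antioxidant genes (9 higher, 2 lower) and 16 genes of cytochrome c and quinone synthesis (5 higher, 4 lower). In these lists 35.6%, 57.9% and 56.25% were called, while 30.1% of all genes were higher and 23.0% lower. Scaled to the T cell receptor list, these lists had 34, 18 and 12 higher genes, against 72.6% of all genes.

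Promoters are printed for 4 members, chosen after values and motif matches were seen: Cycs and Cox6b2, the largest fall and rise of the nuclear members, and Ndufa10 and Ndufa6, the largest of complex I. Of the 94 nuclear members 75 had an entry in the RefSeq promoter table (GRCm38.p6). The 250 bases before each start were searched on both strands for the core of the NRF1 motif, GCATGCGC, the ETS motif, CCGGAAG, the cyclic AMP response element, TGACGTCA, and the YY1 motif. These letter strings were chosen after some of the sequences had been seen. Each member was counted with 1 entry, the one nearest its annotated start, which for Atp5d lay 3643 bases away. The background was counted over all entries and not by gene, so the shares are of unlike units. The NRF1 core was in 10 of the 75 promoters (13.3%) and in 2.26% of all 32851 promoter entries of that length. The ETS motif was in 14 (18.7%) against 6.91%, the cyclic AMP element in 5 (6.67%) against 1.55%, and the YY1 motif in none against 0.301%. By call, the NRF1 core was in 1 of 8 higher, 2 of 13 lower and 7 of 51 uncalled members, the ETS motif in 1, 3 and 10, and the cyclic AMP element in 0, 2 and 2, with 1 more in an untested member. Capitals mark these motifs, and each sequence runs on the gene's strand and ends at the base before the RefSeq start.
Cycs, chr6:50566570-50566819, minus strand: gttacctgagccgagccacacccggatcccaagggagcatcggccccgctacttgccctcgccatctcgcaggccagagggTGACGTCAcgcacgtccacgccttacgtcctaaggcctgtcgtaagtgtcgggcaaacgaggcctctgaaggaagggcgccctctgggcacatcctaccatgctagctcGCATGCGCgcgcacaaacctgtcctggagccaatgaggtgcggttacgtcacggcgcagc
Ndufa10, chr1:92473759-92474008, minus strand: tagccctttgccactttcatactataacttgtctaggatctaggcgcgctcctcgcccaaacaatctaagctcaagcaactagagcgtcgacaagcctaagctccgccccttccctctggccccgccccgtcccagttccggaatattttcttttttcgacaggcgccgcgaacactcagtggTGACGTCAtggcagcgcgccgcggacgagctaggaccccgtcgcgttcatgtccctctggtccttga
Ndufa6, chr15:82354292-82354541, minus strand: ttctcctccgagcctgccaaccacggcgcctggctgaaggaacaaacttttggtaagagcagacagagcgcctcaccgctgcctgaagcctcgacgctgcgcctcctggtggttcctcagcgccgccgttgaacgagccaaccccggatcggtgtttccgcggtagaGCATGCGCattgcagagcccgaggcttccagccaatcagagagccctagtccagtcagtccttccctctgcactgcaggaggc
Cox6b2, chr7:4753095-4753344, minus strand: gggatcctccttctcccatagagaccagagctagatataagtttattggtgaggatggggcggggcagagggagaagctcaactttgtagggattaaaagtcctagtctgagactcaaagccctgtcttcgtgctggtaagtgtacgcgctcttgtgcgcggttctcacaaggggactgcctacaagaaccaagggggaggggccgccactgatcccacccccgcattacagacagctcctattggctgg
Of the printed windows, those of Cycs and Ndufa10 hold the cyclic AMP element, and those of Cycs and Ndufa6 hold the NRF1 core. None of the 4 motifs was found in the Cox6b2 window. A match describes letters and not binding.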

How the data were processed

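RNA of 2 WT and 2 Tbx21-KO libraries was sequenced from an mRNA library kit, per the labels' protocols. The authors deposited 1 table of FPKM values per gene and library. The builds GRCm38 and mm10 come from the submitters' processing notes, and for the aligner, counter and strand setting no name is given in the sources used here. The table's last line, broken off, was left out. Of 24768 Ensembl IDs, 24720 were matched to GENCODE M21 for symbol and gene type. The members and lists were chosen with earlier results of these data known.

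Genes with a mean of at least 1 FPKM were fitted on log2(FPKM + 1) with limma 3.58.1 in R 4.3.3, with a variance trend and no replicate block, and p-values were adjusted over all 11013 genes. The fit was tested on simulated data. The alternatives were pseudocounts of 0.1 and 5, no filter and a filter of 5 FPKM, 4 other scalings, no variance trend, voom on recovered reads, a replicate block, and leaving out each library. The T cell receptor list scaling equalises 17 genes of that complex between libraries. Whole reads were recovered within 0.1 read for 96.7% to 97.3% of values.

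The genes named by rule were the mitochondrially encoded genes, the 3 highest and 3 lowest of each nuclear complex, tissue-form families, members under the filter and 13 regulators and reference genes. The remaining called members, core subunits of complexes I and III, Ndufab1 and the ribosomal RNA genes were named after their values were seen. Gene copies were aligned with BLAST 2.17.0+ between GENCODE transcripts.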

Additional observations from a re-analysis of the deposited data

How the results depend on the processing

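The library scaling decided most directions. Under the T cell receptor list scaling 77 members were higher and 1 lower (74 and 0 of the nuclear members, 3 and 1 of the mitochondrially encoded), with 104 and 0 genes of the other lists, and the medians were 0.42 for nuclear and 0.083 for mitochondrially encoded members. Under it the log2 fold changes of 38 named genes that were called in this fit or the main fit changed sign: Atp5a1 0.19, Atp5b 0.20, Atp5c1 0.43, Atp5d 0.29, Atp5f1 0.17, Atp5g1 0.048, Atp5g2 0.42, Atp5g3 0.17, Atp5o 0.12, Cox5b 0.27, Cox7b 0.44, Cyc1 0.24, Gabpa 0.070, Lrpprc 0.083, Ndufa10 0.077, Ndufa9 0.28, Ndufaf7 0.12, Ndufaf8 0.030, Ndufb6 0.096, Ndufs1 0.39, Ndufs3 0.17, Ndufs8 0.32, Ndufv1 0.34, Nrf1 0.22, Polrmt 0.31, Pprc1 0.11, Sdha 0.42, Sdhb 0.33, Sdhc 0.36, Tfam 0.17, Uqcr11 0.28, Uqcrc1 0.45, Uqcrfs1 0.33, Uqcrq 0.15, mt-Co2 0.35, mt-Nd1 0.18, mt-Nd2 0.053 and mt-Nd6 0.11. Sign changes of genes called in neither fit, such as mt-Atp6, mt-Co3 and Cox7a1, are not in this count. After quantile normalization 46 genes of the other lists were lower and Ndufab1 was at -0.37. Without a filter 15 members were lower, 11 of them nuclear. A pseudocount of 5 gave a mitochondrial median of -0.24. Equal sums without mt- genes, and voom, each called 1 mitochondrially encoded gene higher. The mitochondrially encoded share was 5.64% (WT) and 4.98% (Tbx21-KO) of protein-coding FPKM, and 2.16% and 2.02% of recovered reads.

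Leaving out 1 library gave 5 to 16 higher and 12 to 32 lower members, 5 to 16 and 8 to 25 of them nuclear. It gave 17 to 28 higher and 13 to 22 lower genes of the other lists, and a mitochondrial median of -0.43 to -0.28. The lone library left in a group was then assumed to vary like the others.

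Libraries with the same replicate number showed no shared deviation from their group means (correlation -0.02 over 11013 genes). The labels do not say whether they are paired. With the replicate number as a block 14 members were higher, 1 of them mitochondrially encoded, mt-Co1, Cox5b, Ndufs5 and Uqcrb gained a call, and Sdhd, Ndufaf5 and Nrf1 lost theirs.

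Over the 78 named genes and all alternatives, 993 values kept their call or stayed uncalled, 52 gained a call and 78 lost one. Another 39 changed sign with a call in the main or the alternative fit. Sign changes of values called in neither fit are among the 993. The calls of Ndufaf3, Ndufv3, Cox7a2l and mt-Cytb held in each alternative fit, and that of Cox6b2 in each but the filter of 5 FPKM, which did not test it. With 2 libraries a group the spread is poorly known, and counts of few reads limit mt-Nd4l and mt-Nd3.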

Other observations

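Some genes of the other mitochondrial lists were higher in Tbx21-KO, and those given here were named after their values were seen. Idh2, the mitochondrial isocitrate dehydrogenase that makes NADPH, was at 6.84 and 5.44 FPKM in the WT libraries, against 21.9 and 25.5 FPKM in the Tbx21-KO libraries (log2 fold change 1.79, limma adjusted p = 0.000421). Gpx1, a glutathione peroxidase, rose from 39.5 and 46.6 FPKM to 214.4 and 214.7 FPKM. Hif1a, the oxygen-regulated transcription factor, rose from 66.0 and 61.4 to 142.0 and 141.4 FPKM, and Polg, the mitochondrial DNA polymerase, from 3.58 and 3.53 to 7.19 and 6.67 FPKM. Sqor, which passes electrons from sulfide to quinone, was at 0.265 and 0.355 FPKM in the WT libraries, against 5.41 and 5.29 FPKM in the Tbx21-KO libraries, and was tested because its Tbx21-KO levels lifted its mean past the filter. Granulocyte and mast cell markers summed to 12.1 and 15.7 FPKM in WT and to 10972.6 and 11284.5 FPKM in the Tbx21-KO libraries, and their part in these rises was not tested.

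Gm28438, the chromosome 1 copy of mt-Nd3, was at 11.3 and 8.29 FPKM in the WT libraries, against 1.24 and 0.844 FPKM in the Tbx21-KO libraries, a log2 difference of -2.39 (SE 0.17, limma adjusted p = 0.000474). These values rest on 97 and 69 reads against 10 and 7. The other 6 copies in the same stretch lay between 1.13 and 38.9 FPKM over the 4 libraries.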
